A study of Mus musculus with 8 samples.

Results

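The genes described here are 10 genes listed together as markers of monocyte and macrophage identity, although the receptor made by Csf3r is best known from neutrophils. All 10 were measured in immature myeloid cells (IMCs) of mice with and without a myeloid deletion of PARP1 or PARP2. They are the growth factor receptor genes Csf1r, Csf2ra, Csf2rb and Csf3r, the surface antigen genes Ly6c2, Cd14 and Adgre1, the lysosomal gene Cd68 and the tetraspanin genes Cd9 and Cd63. The members were taken by symbol from the 24062 rows of the deposited count table, in which 9 of the 10 were found under the listed symbol and Adgre1 was found through RefSeq under its older symbol Emr1. All 10 passed the filter on low counts.

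IMCs were grown from bone marrow of 2-month-old C57BL/6 mice for 3 days with 40 ng/mL of M-CSF, the growth factor that drives monocytes and macrophages, and their total RNA was sequenced with a stranded kit. There were 8 libraries in 4 groups of 2. The groups were PARP1 WT (PARP1 flox/flox), PARP1CKO (PARP1 flox/flox with lysozyme-Cre), PARP2 WT (PARP2 flox/flox) and PARP2CKO (PARP2 flox/flox with lysozyme-Cre), so that the WT mice carry a floxed gene too and differ from the CKO mice of their line by the Cre. Lysozyme-Cre (LyzM-Cre) deletes a floxed gene in myeloid cells, and cells that have not turned on lysozyme keep the gene. The duplicates of each group are called biological by the submitters, who do not say whether each is 1 mouse, and p-values therefore measure the spread between these cultures.

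Blood-forming cells choose and keep a myeloid fate through a small set of growth factor receptors. M-CSF acts on a receptor tyrosine kinase made by Csf1r, which monocytes, macrophages and osteoclast precursors carry. GM-CSF and G-CSF act on cytokine receptors that signal through JAK kinases, and the G-CSF receptor is best known from neutrophils. As monocytes mature into macrophages they usually lose the antigen Ly6C and gain F4/80, the product of Adgre1, while CD68 fills their lysosomes.

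Between 37852450 and 61845125 reads per library were assigned to genes, and each member was counted 2316 times or more in every library, so that counting error alone lay between 0.293% and 2.08% of a member's level. Levels are given as CPM, the counts of a gene scaled to a fixed library total, after TMM scaling. The deletions could be read in the data. Parp1 had 202 and 211 CPM in PARP1 WT against 63.2 and 59.1 CPM in PARP1CKO, a log2 difference of -1.75 (SE 0.178, adjusted p = 0.0134), and Parp2 had 48.2 and 48.3 CPM in PARP2 WT against 25.7 and 25.6 CPM in PARP2CKO, a log2 difference of -0.91 (SE 0.0453, adjusted p = 0.000139). In PARP2 WT, Parp1 itself was uneven, at 251 CPM in replicate 1 and 155 CPM in replicate 2. Itgam, which encodes the CD11b that defines IMCs together with Gr1, lay between 881 and 1035 CPM. Ly6c2, the Ly6C part of Gr1, is among the members. For the Ly6G part, no row of the count table was matched to Ly6g. In bulk RNA, fewer cells of a type and less RNA per cell cannot be told apart.

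The upstream sequences of 5 genes are shown because they belong to the members that the results turn on. Csf3r and Cd9 are the members that separated the PARP1 and PARP2 mouse lines. Ly6c2 is set beside its near copy Ly6c1, with which it shares part of its transcript sequence, and Cd68 is the most abundant member per length. Each stretch ends before the start of the gene in both RefSeq and GENCODE, is written 5′ to 3′ on the gene's own strand, and comes from RefSeq on GRCm38.p6. Capitals mark 4 motifs that were searched on both strands, the PU.1 core GAGGAA, the C/EBP motif TTGCNNAA, the RUNX motif TGTGGT and the AP-1 motif TGAGTCA. A PU.1 match on the other strand reads TTCCTC, whereas a RUNX match there reads ACCACA.
Csf3r, chr4:126024409-126024549, plus strand: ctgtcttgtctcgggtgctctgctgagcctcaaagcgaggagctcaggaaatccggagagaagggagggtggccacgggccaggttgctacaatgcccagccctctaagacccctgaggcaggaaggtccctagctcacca
Cd9, chr6:125494792-125495010, minus strand: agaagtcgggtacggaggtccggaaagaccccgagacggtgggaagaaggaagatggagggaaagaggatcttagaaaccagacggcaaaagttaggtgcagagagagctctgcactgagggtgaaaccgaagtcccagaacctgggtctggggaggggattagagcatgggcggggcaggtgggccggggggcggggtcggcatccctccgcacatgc
Ly6c2, chr15:75111972-75112221, minus strand: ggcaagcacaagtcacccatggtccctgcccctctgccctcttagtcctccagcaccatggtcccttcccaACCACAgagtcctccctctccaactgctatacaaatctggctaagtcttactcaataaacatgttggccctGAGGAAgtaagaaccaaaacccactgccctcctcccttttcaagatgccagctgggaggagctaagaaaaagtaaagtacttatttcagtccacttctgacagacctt
Ly6c1, chr15:75048838-75049087, minus strand: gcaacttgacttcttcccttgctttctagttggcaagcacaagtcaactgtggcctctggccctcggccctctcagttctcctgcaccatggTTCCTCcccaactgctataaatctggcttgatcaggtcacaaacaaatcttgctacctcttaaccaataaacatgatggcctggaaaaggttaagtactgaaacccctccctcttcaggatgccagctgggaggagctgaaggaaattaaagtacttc
Cd68, chr11:69666171-69666420, minus strand: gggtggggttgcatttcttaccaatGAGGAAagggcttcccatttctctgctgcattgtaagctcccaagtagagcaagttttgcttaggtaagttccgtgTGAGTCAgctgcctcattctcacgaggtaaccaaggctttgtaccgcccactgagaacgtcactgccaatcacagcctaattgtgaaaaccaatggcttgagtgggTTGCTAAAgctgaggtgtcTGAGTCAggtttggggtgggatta

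Promoter windows around the start were given for 6 of the members, 7 windows in all, with Ly6c2 having 2 overlapping ones. The PU.1 core, the binding letters of a factor that macrophages and neutrophils depend on, was found in 6 of these 7 windows and in 28.3% of all 32851 promoters. Cd9 was the member without it. The window of Cd63, which holds the core, surrounds a RefSeq start that lies inside the GENCODE gene. C/EBP letters were found in 1 window (10.8% of all promoters), RUNX letters in 2 (16.8%), which are both windows of Ly6c2, and AP-1 letters in 1 (5.2%), that of Cd68, which holds them at 149 and 24 bases before the start. In Csf3r the PU.1 letters lie 86 bases before the RefSeq start, past the end of the stretch shown. A match of letters is a description of these windows and not of binding. The 250 bases before the starts of Ly6c2 and Ly6c1 were identical at 164 positions, 57.75% of an alignment of 284 positions. Of these positions 68 were gaps, which count as not identical in that share.

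Per length of exon the markers spanned a wide range, and their order was almost the same in every library. Cd68 was the highest, with a median over the 8 libraries of 1385 CPM per kb, followed by Cd63 at 384, Cd9 at 351, Csf1r at 249.6, Adgre1 at 168, Csf2ra at 103, Ly6c2 at 70.4, Cd14 at 52.5, Csf2rb at 36.8 and Csf3r at 22.1 CPM per kb. Neighbours in this order whose ranges over the libraries overlapped were Cd63 and Cd9, with Cd63 higher in 7 of 8 libraries, Csf2ra and Ly6c2, and Ly6c2 and Cd14, the last 2 pairs keeping their order in 8 of 8. On this scale Csf1r stood between 8.88 and 14.8 times as high as Csf3r. These levels rest on GENCODE exon lengths, and the annotation used for counting is not given in the sources used here.

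**Figure D1:**
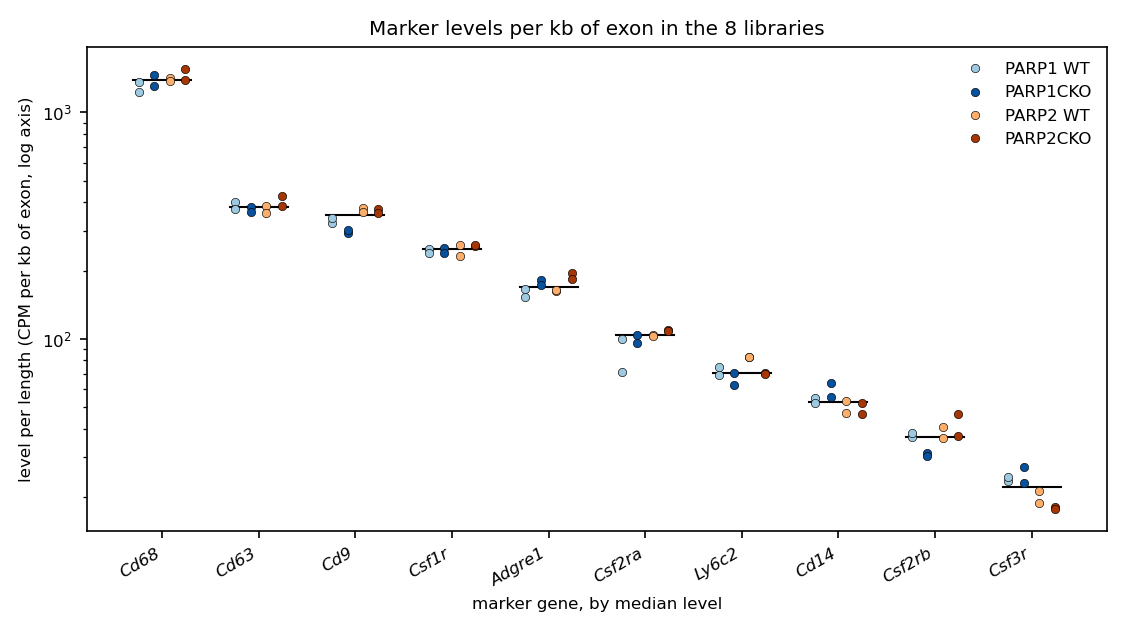
Level of each marker per length in CPM per kb of exon (log axis), with 1 point per library coloured by group and a line at the median of the 8 libraries. Cd68 stands at 1385 and Csf3r at 22.1 CPM per kb, and the points of a gene lie close together next to the distance between genes.

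Members also differed in how much they varied. Over all 8 libraries, differences between the groups included, Csf1r had the lowest coefficient of variation, 4.21%, and Csf3r the highest, 15.5%. Between replicates of a group the order was another one. There Cd9 varied least, with an SD of 0.042 on the log2 scale, followed by Adgre1 at 0.0577 and Csf1r at 0.0641, and Csf2ra varied most, at 0.179, ahead of Csf2rb at 0.1296 and Cd14 at 0.115. Csf3r stood at 0.104. The value of Csf2ra rests on its PARP1 WT pair, at 132 and 186 CPM, since the libraries of its other pairs lay much closer together.

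**Figure D2:**
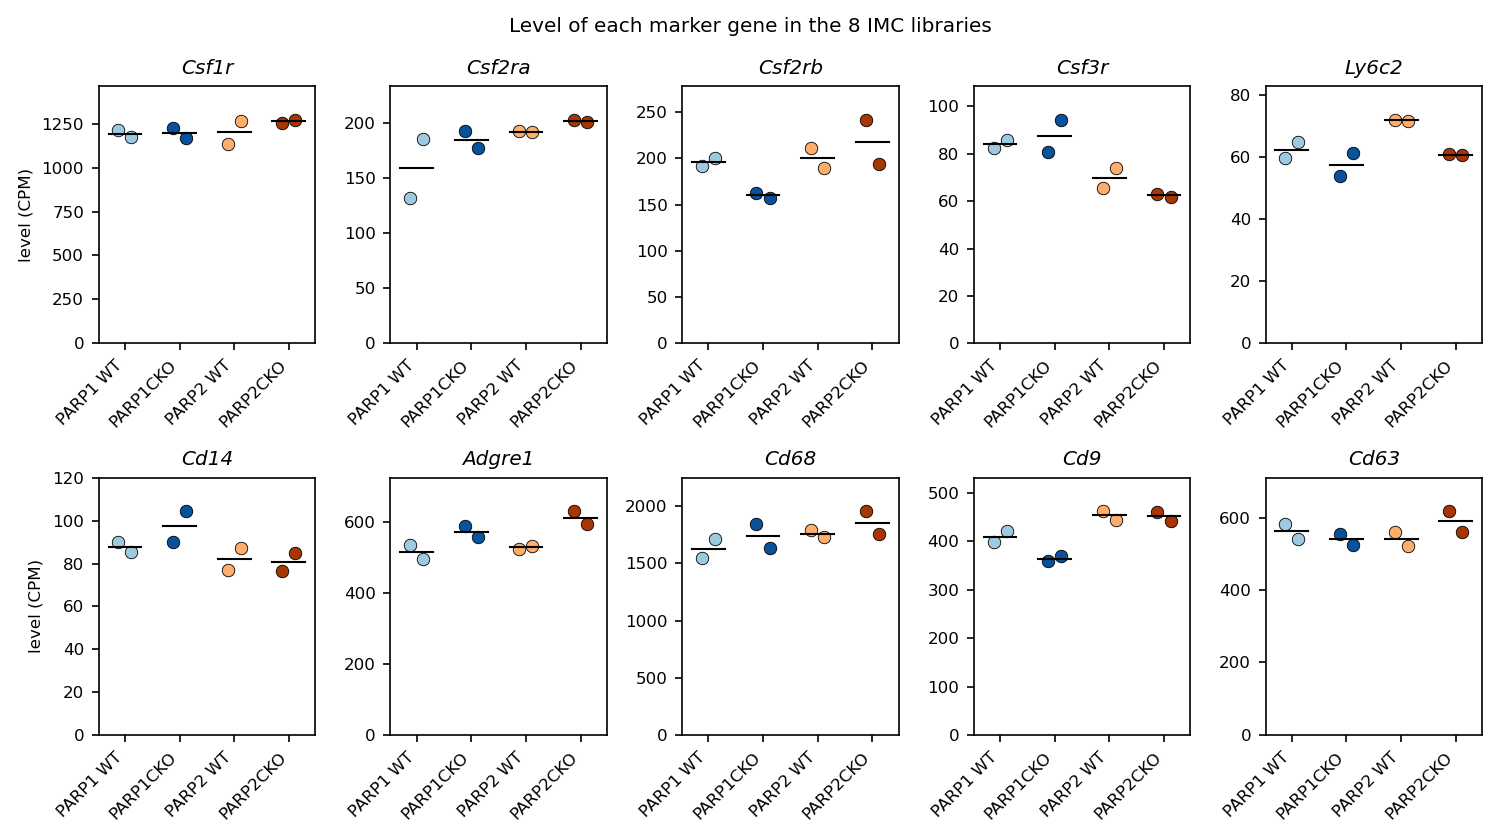
Level in CPM of each of the 10 markers in the 8 libraries, with 1 point per library, a line at the mean of each group of 2, and an axis that starts at 0. Csf3r lies lower in all 4 libraries of the PARP2 line than in the PARP1 line, Cd9 lies higher, and Adgre1 is higher in CKO than in WT libraries of both lines.

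Csf1r, on chromosome 18, encodes the M-CSF receptor, the receptor for the factor in the culture medium. Its level was 1212 and 1173 CPM for PARP1 WT, 1226 and 1167 CPM for PARP1CKO, 1134 and 1266 CPM for PARP2 WT, and 1256 and 1273 CPM for PARP2CKO. CKO and WT libraries overlapped in both lines. On the log2 scale the difference was 0.00 in PARP1CKO (95% interval -0.13 to 0.14, adjusted p = 0.982 in edgeR's quasi-likelihood test) and 0.08 in PARP2CKO (-0.06 to 0.21, adjusted p = 0.954). Of the 75-base stretches of its transcripts, 15.9% also occur in Hmgxb3, which overlaps it on the opposite strand, and whether counting used the strand is not stated.

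Positions of the genes are given as in GENCODE M21 on mm10. Csf2ra, on chromosome 19 from 61223957 to 61228429, makes the chain that binds GM-CSF. Its level was 132 and 186 CPM for PARP1 WT, 193 and 177 CPM for PARP1CKO, 193 and 192 CPM for PARP2 WT, and 203 and 202 CPM for PARP2CKO. PARP1 WT replicate 1 stood below the other 7 libraries, which lay between 177 and 203 CPM. With that library the log2 difference in PARP1CKO was 0.22 (SE 0.125, adjusted p = 0.528), and without it -0.01. In PARP2CKO both libraries were above both PARP2 WT libraries, by a log2 difference of 0.07 (SE 0.124, adjusted p = 0.977).

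Csf2rb, on chromosome 15 from 78325752 to 78353847, makes the common beta chain that passes on the signals of GM-CSF, IL-3 and IL-5. Its level was 191 and 199.98 CPM for PARP1 WT, 163 and 157 CPM for PARP1CKO, 212 and 189.9 CPM for PARP2 WT, and 242 and 194 CPM for PARP2CKO. The PARP1CKO libraries were thus the lowest of the 8, while the PARP2CKO libraries overlapped PARP2 WT and the single highest value was PARP2CKO replicate 1. The log2 difference was -0.29 in PARP1CKO (SE 0.0945, unadjusted p = 0.0141, adjusted p = 0.323 in edgeR's quasi-likelihood test) and 0.12 in PARP2CKO (SE 0.0937, adjusted p = 0.956). The difference between these effects was 0.41 (95% interval 0.10 to 0.71, unadjusted p = 0.0141, adjusted p = 0.582 in the same test). Without PARP2CKO replicate 1 this difference was 0.24 and the PARP2CKO value itself was -0.0529, and without PARP2CKO replicate 2 they were 0.56 and 0.27. Its neighbour Csf2rb2, the IL-3 specific beta chain of the mouse, had 115 and 114 CPM for PARP1 WT, 93.8 and 77.0 CPM for PARP1CKO, 112 and 99.2 CPM for PARP2 WT, and 132 and 103 CPM for PARP2CKO. Its PARP1CKO libraries too were the lowest of the 8, with a log2 difference of -0.42 in PARP1CKO (SE 0.122, adjusted p = 0.287). The copies share 9.97% of the 75-base stretches of Csf2rb, so reads from one could be counted on the other, and per length Csf2rb was between 1.501 and 1.85 times as abundant as Csf2rb2. Set against the ligand-binding chain, Csf2rb stood per length at 0.514 and 0.383 of Csf2ra in PARP1 WT, 0.3005 and 0.316 in PARP1CKO, 0.390 and 0.352 for PARP2 WT, and 0.423 and 0.342 for PARP2CKO, so that the PARP1CKO libraries were the lowest here too.

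Csf3r, on chromosome 4 from 126024550 to 126044440, makes the G-CSF receptor. Its level was 82.3 and 85.9 CPM for PARP1 WT, 80.6 and 94.4 CPM for PARP1CKO, 65.7 and 74.2 CPM for PARP2 WT, and 63.2 and 61.9 CPM for PARP2CKO. Every library of the PARP2 line was below every library of the PARP1 line, and within the PARP2 line the CKO libraries were below the WT libraries. On the log2 scale the difference was 0.06 in PARP1CKO (SE 0.0782, adjusted p = 0.816) and -0.16 in PARP2CKO (95% interval -0.34 to 0.02, adjusted p = 0.954), and the latter was -0.0705 without PARP2 WT replicate 2 and -0.25 without PARP2 WT replicate 1. Per length, the ratio of Csf1r to Csf3r lay between 8.88 and 10.9 in the 4 libraries of the PARP1 line and between 12.3 and 14.8 in those of the PARP2 line, so the ranges did not overlap.

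Ly6c2, on chromosome 15 from 75108158 to 75111970, makes Ly6C, the antigen of young monocytes and part of the Gr1 epitope of IMCs. Its level was 59.9 and 64.9 CPM for PARP1 WT, 53.9 and 61.2 CPM for PARP1CKO, 72.2 and 71.9 CPM for PARP2 WT, and 61.0 and 60.7 CPM for PARP2CKO. The PARP2 WT libraries were the highest of the 8 and close to each other, and the PARP2CKO libraries lay within the range of the PARP1 line. The log2 difference was -0.24 in PARP2CKO (SE 0.0617, unadjusted p = 0.00351, adjusted p = 0.704 in edgeR's quasi-likelihood test) and -0.12 in PARP1CKO (SE 0.0629, adjusted p = 0.503), where it was -0.0291 without PARP1CKO replicate 1 and -0.21 without PARP1CKO replicate 2. Ly6c1, its near copy, was counted between 25 and 59 times per library, at 0.646 and 0.605 CPM for PARP1 WT, 0.714 and 0.686 CPM for PARP1CKO, 1.02 and 0.865 CPM for PARP2 WT, and 0.687 and 0.683 CPM for PARP2CKO. Ly6c1 too was highest in PARP2 WT, with a log2 difference of -0.46 in PARP2CKO (SE 0.209, adjusted p = 0.954). Of the 75-base stretches of Ly6c2, 20.7% also occur in Ly6c1, and since Ly6c2 was 126 to 191 times as abundant per length, reads of Ly6c2 could be counted on Ly6c1.

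Cd14, on chromosome 18, makes the co-receptor that hands bacterial lipopolysaccharide to TLR4. Its level was 89.9 and 85.3 CPM for PARP1 WT, 90.2 and 104 CPM for PARP1CKO, 76.8 and 87.1 CPM for PARP2 WT, and 76.5 and 85.1 CPM for PARP2CKO. The PARP1CKO libraries were the highest of the 8, narrowly so for replicate 1, and the PARP2 groups covered nearly the same range as each other. On the log2 scale the difference was 0.15 in PARP1CKO (SE 0.0852, adjusted p = 0.519) and -0.02 in PARP2CKO (SE 0.0850, adjusted p = 0.993). The PARP1CKO value was 0.0433 without PARP1CKO replicate 2 and 0.25 without PARP1CKO replicate 1.

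Adgre1, on chromosome 17 from 57358691 to 57483527, makes F4/80, the classical antigen of mouse macrophages. Its level was 534 and 495 CPM in PARP1 WT against 588 and 556 CPM in PARP1CKO. In the other line it was 524 and 531 CPM in PARP2 WT against 630.4 and 594 CPM in PARP2CKO. All 4 CKO libraries were above all 4 WT libraries, and Adgre1 was the only member whose CKO and WT libraries did not overlap over both lines. Such separation, in either direction, was found for 2.76% of the genes tested. The log2 difference was 0.15 in PARP1CKO (95% interval 0.03 to 0.28, unadjusted p = 0.0195, adjusted p = 0.355 in edgeR's quasi-likelihood test) and 0.21 in PARP2CKO (0.09 to 0.34, unadjusted p = 0.00340, adjusted p = 0.704). The PARP1CKO value was 0.0956 without PARP1 WT replicate 2. No 75-base stretch of its transcripts occurs in another gene.

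Cd68, on chromosome 11 from 69664213 to 69666153, makes a heavily glycosylated protein of macrophage lysosomes. Its level was 1546 and 1713 CPM for PARP1 WT, 1847 and 1638 CPM for PARP1CKO, 1789 and 1729 CPM for PARP2 WT, and 1957 and 1754 CPM for PARP2CKO. CKO and WT libraries overlapped in both lines, with log2 differences of 0.10 in PARP1CKO (SE 0.0785, adjusted p = 0.664) and 0.08 in PARP2CKO (SE 0.0784, adjusted p = 0.968). The PARP1CKO value was 0.0065 without PARP1CKO replicate 1 and 0.18 without PARP1CKO replicate 2.

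Cd9, on chromosome 6 from 125460266 to 125494791, makes a tetraspanin, one of the small membrane proteins that cluster adhesion receptors. Its level was 399 and 420.4 CPM for PARP1 WT, 358 and 371 CPM for PARP1CKO, 463 and 445 CPM for PARP2 WT, and 460.2 and 442 CPM for PARP2CKO. The groups stood in steps, with PARP1CKO lowest, PARP1 WT above it, and both PARP2 groups highest and overlapping. On the log2 scale the difference was -0.17 in PARP1CKO (SE 0.0466, unadjusted p = 0.00551, adjusted p = 0.282 in edgeR's quasi-likelihood test) and -0.01 in PARP2CKO (SE 0.0464, adjusted p = 0.997), and the difference between these effects was 0.16 (95% interval 0.01 to 0.31, unadjusted p = 0.0363, adjusted p = 0.627). Gm26728 overlaps the gene and its upstream stretch on the opposite strand and shares 12.5% of its 75-base stretches.

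Cd63, on chromosome 10 from 128900989 to 128912822, makes the tetraspanin of late endosomes and exosomes. Its level was 583 and 541 CPM for PARP1 WT, 554 and 525 CPM for PARP1CKO, 559 and 522 CPM for PARP2 WT, and 618 and 561 CPM for PARP2CKO. Both PARP2CKO libraries were above both PARP2 WT libraries, narrowly for the nearest ones, with a log2 difference of 0.12 (SE 0.0637, adjusted p = 0.954) that was 0.0526 without PARP2CKO replicate 1 and 0.19 without PARP2CKO replicate 2, and in PARP1CKO it was -0.06 (SE 0.0638, adjusted p = 0.749). The latter was -0.0076 without PARP1 WT replicate 1 and -0.12 without PARP1 WT replicate 2. The pseudogene Cd63-ps shares 17.3% of its 75-base stretches.

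Over the 10 members, none passed an adjusted p of 0.05 in PARP1CKO against PARP1 WT with edgeR's quasi-likelihood test, where 0.106% of all 13197 genes tested did. An unadjusted p under 0.05 was reached by 3 of 10, Csf2rb, Adgre1 and Cd9, against 11.3% of all genes, and 4 of 10 had groups that did not overlap, against 41.2% of all genes. In PARP2CKO against PARP2 WT again none passed (0.053% of all genes), 2 of 10, Ly6c2 and Adgre1, had an unadjusted p under 0.05 (4.83%), and 5 of 10 had groups that did not overlap (37.2%). DESeq2 and edgeR's likelihood-ratio test also called none of the 10 in either comparison. Separated groups were thus about as common among the members as among all genes in PARP1CKO. For PARP2CKO the counts of the members were not tested against the shares of all genes. The median log2 difference of the members was 0.03 in PARP1CKO and 0.07 in PARP2CKO, beside 0.01 and -0.00 over all genes. A missed threshold does not show that a level stayed the same, and the 95% intervals of the 10 members together reached from 0.706-fold to 1.41-fold in PARP1CKO and from 0.767-fold to 1.28-fold in PARP2CKO.

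**Figure D3:**
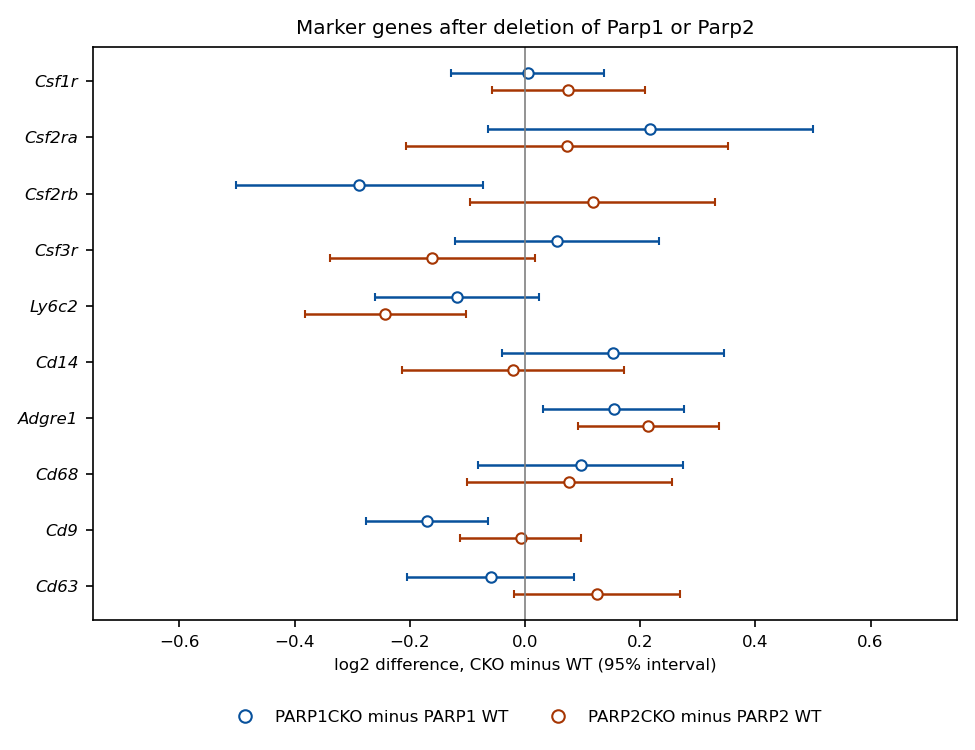
Log2 difference of each marker between CKO and WT libraries with its 95% interval from the model, for the PARP1 line and the PARP2 line, open circles standing for an adjusted p above 0.05. All circles are open, and the intervals of Adgre1 lie above 0 in both lines.

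The effects of the deletions were compared directly as well. For none of the 10 did the difference between the PARP2 and the PARP1 effect pass an adjusted p of 0.05 (0.0152% of all genes), and 2 of 10, Csf2rb and Cd9, had an unadjusted p under 0.05 in edgeR's quasi-likelihood test (7.69% of all genes). DESeq2 and the likelihood-ratio test called none here. In both of these members the PARP1CKO libraries lay below the PARP1 WT libraries, while the PARP2 groups overlapped.

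After the values of Adgre1 had been seen, the mean effect of both deletions was added to the tests. None of the 10 members passed an adjusted p of 0.05 in edgeR's quasi-likelihood test (0.106% of all genes) and 3 of 10 had an unadjusted p under 0.05 (9.17%), namely Adgre1, Ly6c2 and Cd9. For Adgre1 the mean effect was 0.18 on the log2 scale (95% interval 0.10 to 0.27, adjusted p = 0.2401), and fits that dropped 1 library at a time gave 0.16 to 0.21. DESeq2 and the likelihood-ratio test, which call more genes from the same counts, gave adjusted p-values of 0.00340 and 0.0139 for Adgre1 and called no other member. Over all alternatives run the adjusted p of Adgre1 ranged from 0.00340 to 0.662. For Ly6c2 the mean effect was -0.18 (95% interval -0.28 to -0.08, adjusted p = 0.344), and its CKO libraries, at 53.9 to 61.2 CPM, overlapped its WT libraries, at 59.9 to 72.2 CPM.

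Markers of the monocyte and macrophage stages outside the 10 genes were read beside these values. Of 10 macrophage markers tested, 6 were higher in PARP1CKO and 7 in PARP2CKO, with medians of 0.05 and 0.12. An unadjusted p under 0.05 was reached by 1 of 10 in PARP1CKO (11.3% of all genes) and by 3 of 10 in PARP2CKO (4.83%). In PARP1CKO 1 was called (0.106% of all genes), Siglec1, the sialoadhesin of macrophages. It had 70.0 and 76.7 CPM in PARP1 WT against 124 and 142 CPM in PARP1CKO (log2 difference 0.86, SE 0.0864, adjusted p = 0.0134 in edgeR's quasi-likelihood test). In PARP2CKO Siglec1 had a log2 difference of 0.19 (adjusted p = 0.954). The summed level of all 12 macrophage markers was 15026 to 15642.5 CPM in PARP1 WT, 15447 to 17968 CPM in PARP1CKO, 17237 to 19484 CPM in PARP2 WT and 19478 to 22237 CPM in PARP2CKO. Of 10 monocyte markers, 9 were lower in PARP1CKO and 7 in PARP2CKO, with medians of -0.16 and -0.04, and none was called. An unadjusted p under 0.05 was reached by 2 of 10 in PARP1CKO and by 1 of 10 in PARP2CKO. The summed monocyte markers were at 1186 to 1274 CPM in PARP1 WT, 1107 to 1109.7 CPM in PARP1CKO, 1149.9 to 1150.2 CPM in PARP2 WT and 1135 to 1139 CPM in PARP2CKO. The macrophage sums of CKO and WT libraries overlapped in both lines, and the monocyte sums did not overlap in either line. How often a sum over 10 genes separates groups of 2 was not measured. Markers of other cells are given for the same reason. In PARP2CKO, basophil and mast cell markers had a negative log2 difference for 9 of 9, with a median of -0.41, and their sum was 25.7 to 25.9 CPM against 32.2 to 35.3 CPM in PARP2 WT. Neutrophil markers had a negative difference for 10 of 12 there, with a median of -0.18, beside the lower values of Csf3r and Ly6c2. None of these markers was called with edgeR's quasi-likelihood test, and 3 of each list had an unadjusted p under 0.05. Such counts in PARP2CKO stand beside 4.83% of all genes. Eosinophil markers were lower for 5 of 7 in PARP2CKO, with a median of -0.37 and 2 of them at an unadjusted p under 0.05. Megakaryocyte and platelet markers were lower there for 8 of 9, with a median of -0.13, and T and NK cell markers for 3 of 3, with a median of -0.39. Of 9 T and NK cell genes listed only these 3 were tested. The list summed to 3.34 to 4.08 CPM in PARP2CKO against 4.50 to 5.02 CPM in PARP2 WT. Erythroid markers were lower there for 4 of 6, with a median of -0.32, 1 of them at an unadjusted p under 0.05. For B cell markers this was 5 of 7, with a median of -0.18. Osteoclast markers went the other way, higher for 6 of 9 with a median of 0.24 and 2 of them at an unadjusted p under 0.05, and their sum was 341 to 363 CPM in PARP2CKO against 317 to 324 CPM in PARP2 WT. In PARP1CKO, where 11.3% of all genes had an unadjusted p under 0.05, this held for 2 of 6 erythroid markers. Of these 6, 5 were higher, with a list median of 0.59 and a sum of 9.69 to 12.1 CPM against 7.05 to 7.21 CPM in PARP1 WT. T and NK cell markers were higher there for 3 of 3, with a median of 0.45, 1 of them at an unadjusted p under 0.05. Their list summed to 4.56 to 5.99 CPM, which overlapped the 4.07 to 4.63 CPM of PARP1 WT. B cell markers were higher for 7 of 7, with a median of 0.27, and eosinophil markers for 5 of 7, with a median of 0.11. Dendritic cell markers were lower for 7 of 8, with a median of -0.16. Basophil and mast cell markers were lower for 6 of 9 and neutrophil markers for 6 of 12, and none of the markers of these lists was called. The part of a changed mix of cells in the members' values was not tested.

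More genes were called between the mouse lines than with either deletion. The line contrast sets 4 libraries against 4, however, and each deletion 2 against 2. The median size of the log2 difference over all genes was 0.088 between the lines, 0.079 in PARP1CKO and 0.058 in PARP2CKO. The PARP2 line, WT and CKO together, was set against the PARP1 line, and 3 of 10 members passed an adjusted p of 0.05, where 16.4% of all genes did. Of these, 2 were higher in the PARP2 line (8.36% of all genes) and 1 was lower (8.04%). Groups of 4 that did not overlap were found for 2 of 10 members, Csf3r and Cd9, against 20.4% of all genes. The line cannot be told apart from litter, day of culture or any batch that went with it.

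Csf3r was lower in the PARP2 line, at 66.2 against 85.8 CPM on average, with a log2 difference of -0.38 (SE 0.0555, adjusted p = 0.00316 in edgeR's quasi-likelihood test). Cd9 was higher, at 453 against 387 CPM, with a log2 difference of 0.23 (SE 0.0329, adjusted p = 0.00284). Both kept the call in every fit that dropped 1 library. Csf2rb was higher, at 209 against 178 CPM (log2 difference 0.24, SE 0.0666, adjusted p = 0.0400), but its groups overlapped, its WT means were 196 CPM in PARP1 WT and 201 CPM in PARP2 WT, and 6 of the 8 fits that left out a library lost the call, with adjusted p-values of up to 0.122 and a value of 0.16 without PARP2CKO replicate 1. Its CKO means stood further apart, at 160.2 CPM in PARP1CKO and 218 CPM in PARP2CKO. Ly6c2 (0.14, adjusted p = 0.0571) and Cd14 (-0.18, adjusted p = 0.0705) did not pass the threshold in edgeR's quasi-likelihood test. Among 15 alternatives Ly6c2 passed in 5, with adjusted p-values over all of them from 0.0153 to 0.195, and Cd14 in 6, with a range from 0.0172 to 0.223. Both passed with a replicate block (adjusted p = 0.0458 and 0.0411), which brought the members called to 5. Csf1r, Adgre1, Cd68 and Cd63 had line differences between 0.03 and 0.10 with intervals that include 0. Csf2ra had 0.20 (adjusted p = 0.154), which was 0.09 without PARP1 WT replicate 1 and 0.34 without PARP1 WT replicate 2, where it passed (adjusted p = 0.0023). Over all alternatives its adjusted p ranged from 0.0023 to 0.346.

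**Figure D4:**
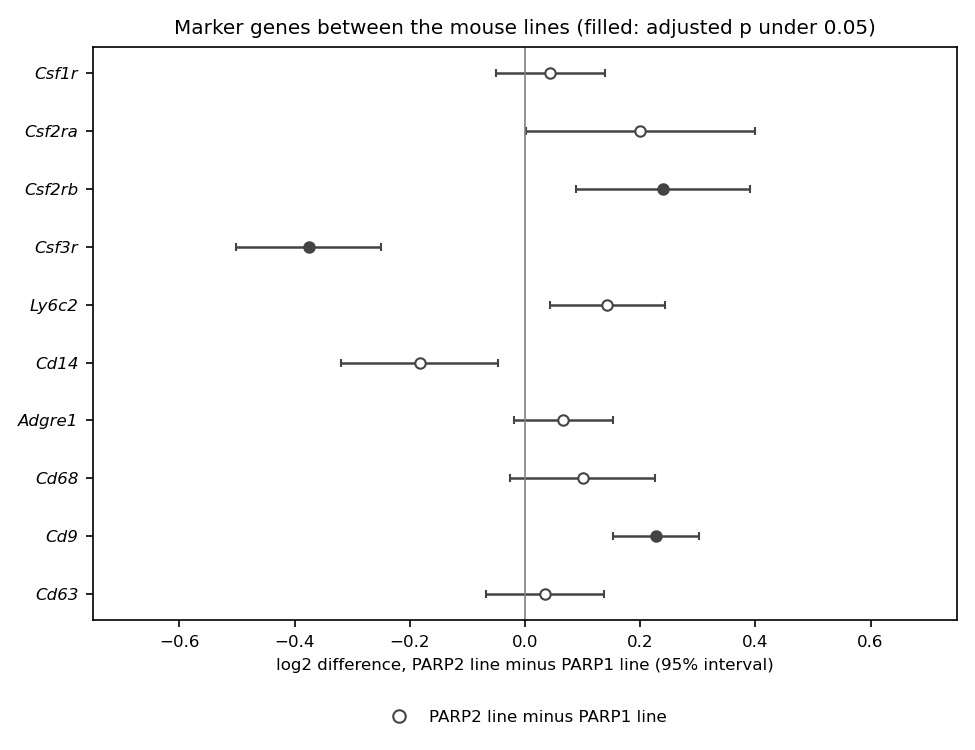
Log2 difference of each marker between the 4 libraries of the PARP2 line and the 4 of the PARP1 line with its 95% interval, filled circles standing for an adjusted p under 0.05. The filled circles are Csf2rb at 0.24, Csf3r at -0.38 and Cd9 at 0.23.

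Markers of other cells moved between the lines with these members. B cell markers were called lower in the PARP2 line for 7 of 7 tested, with summed levels of 29.6 to 43.3 CPM in the PARP1 line and 8.18 to 11.5 CPM in the PARP2 line, and basophil and mast cell markers were called lower for 9 of 9. All 6 granulocyte progenitor markers were called higher, among them Mpo (log2 difference 0.45) and Elane (0.39). All 10 macrophage markers tested had a positive difference and 6 of them were called, among them Mertk (0.81). Monocyte markers were mixed, with 3 called higher and 2 lower of 10. Of 6 erythroid markers 4 were called lower, with a list median of -1.57. Osteoclast markers gave 3 called higher and 1 lower of 9, and dendritic cell markers 1 higher and 2 lower of 8. Among all genes 8.36% were called higher and 8.04% lower. Beside the lower level of Csf3r stand 3 neutrophil markers called lower, Cxcr2 (-0.73), Mmp9 (-0.90) and Retnlg (-1.02), 1 called higher, Chil3 (0.49), and 8 of 12 not called. Mmp9 is on the osteoclast list as well and is the 1 marker called lower there. The summed neutrophil markers overlapped between the lines, at 2920.5 to 3689 CPM in the PARP1 line and 3122 to 3828 CPM in the PARP2 line. Of all marker genes listed, Calcr of osteoclasts and Ncr1 of NK cells had 3 counts or fewer in every library. The part of these cells in the line differences was not tested.

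The relatives of each member were followed through gene lists. Among 26 genes of colony-stimulating factor signalling that were tested, of 31 listed, none was called in either deletion, and 5 were called between the lines, 2 of them higher and 3 lower, where 16.4% of all genes were called. Csf1, the M-CSF gene itself, was lower in the PARP2 line, at 8.47 to 14.6 against 19.3 to 33.7 CPM (log2 difference -1.22, SE 0.196, adjusted p = 0.00469). Il3ra was higher (0.33) and Il5ra, with under 1 CPM in all libraries, was lower (-1.62), and both make alpha chains that pair with the beta chain of Csf2rb. The signalling adaptor Tyrobp was higher (0.12) and the phospholipase Plcg2 lower (-0.11). The smallest p of the list was that of Il3ra in PARP1CKO (log2 difference 0.42, adjusted p = 0.176) and of Tyrobp in PARP2CKO (0.10, adjusted p = 0.954). Its median log2 difference was 0.01 in PARP1CKO, 0.00 in PARP2CKO and -0.04 between the lines, beside medians over all genes of 0.01, -0.00 and -0.00.

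Tetraspanins other than Cd9 and Cd63 gave 19 genes tested, none of them called in either deletion. Between the lines 5 were higher, Cd151 (log2 difference 0.15), Tspan3 (0.22), Tspan4 (0.28), Tspan5 (0.35) and Tspan18 (1.151), the last with under 1 CPM in every library. The 3 that were lower were Cd81 (-0.33), Tspan13 (-0.56) and Tspan32 (-0.44). These 8 calls of 19 stand beside 16.4% of all genes, 8.36% higher and 8.04% lower, and the median over the list was 0.01. With the smallest p in the deletions came Cd151 in PARP1CKO (0.18, adjusted p = 0.279) and Tspan4 in PARP2CKO (0.22, adjusted p = 0.849).

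Of 11 partners of CD14 in sensing lipopolysaccharide, none was called in a deletion. The line calls of this list and of the next 3 are to be read beside the 16.4% of all genes called between the lines. Between the lines Lbp (0.41) and the integrin chain gene Itgb2 (0.15) were higher and Cd180 (-0.23) was lower in the PARP2 line. Ly86 had the smallest p in PARP1CKO (0.20, adjusted p = 0.494) and Lbp in PARP2CKO (-0.23, adjusted p = 0.954). Of 5 Ly6 genes tested, Ly6d (-1.54) and Ly6e (-0.45) were lower in the PARP2 line, opposite to the sign of Ly6c2 there, and the smallest p in the deletions belonged to Ly6g5b in PARP1CKO (-0.77, adjusted p = 0.466) and to Ly6c1 in PARP2CKO. Among 9 adhesion receptors related to F4/80, Adgre5 (0.22) and Adgrl2 (0.35) were higher and Adgrl1 (-0.36) lower in the PARP2 line, and in the deletions Adgrl4 in PARP1CKO (-0.65, adjusted p = 0.225) and Adgrg6 in PARP2CKO (0.29, adjusted p = 0.888) had the smallest p. Among 12 lysosomal membrane genes set beside Cd68 none was called in any of these comparisons, with Laptm4b in PARP1CKO (0.33, adjusted p = 0.293) and Npc2 in PARP2CKO (0.12, adjusted p = 0.927) having the smallest p.

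For each member the 2 genes whose log2 CPM followed it most closely over the 8 libraries were looked up. They were Gprc5a and Mfsd9 for Csf1r, Sf3b5 and Rnasek for Csf2ra, St3gal1 and Las1l for Csf2rb, Klhl24 and Mcm9 for Csf3r, and 1100001G20Rik and Erg for Ly6c2. Cd14 was followed by Eea1 and Fndc3a, Adgre1 by Xdh and Rab31, Cd68 by Rplp1 and Flii, Cd9 by Fam110c and Mmp2, and Cd63 by Sdhc and Coa4. Some of these genes were barely detected, with highest levels of 0.288 CPM for Gprc5a, 0.704 CPM for Fam110c and 0.363 CPM for Mmp2. The highest Pearson correlation was 0.99, between Csf2ra and Sf3b5, and the lowest of these was 0.93, between Csf1r and Mfsd9. The median gene of the 13197 tested had a best partner at 0.973, so that correlations of this size over 8 libraries, which share lines and depth, are common among all genes here.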

How the data were processed

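Total RNA of the 8 IMC cultures was sequenced, and the authors deposited raw counts per gene that had been made with TopHat 2.0.12 on mm10 and featureCounts, after FastQC 0.11.2 and Picard 1.127, per the submitters' processing notes. The annotation and strand setting of counting are not given in the sources used here. The table held 0 columns outside the 8 libraries. Genes were filtered by edgeR's default rule on low counts, which left 13197 of 24062, and 6520 had no count. Counts were scaled by TMM and fitted over all 8 libraries with edgeR 4.0.16 in R 4.3.3 (quasi-likelihood test, Benjamini-Hochberg adjustment over all genes tested, limit 0.05). The line contrast set the mean of both PARP2 groups against that of both PARP1 groups. The fit was tested on simulated data first.

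The members and lists were chosen with earlier results of these data known. Named were all members, Parp1 and Parp2, the copies Ly6c1 and Csf2rb2, called genes of each pathway list or else the gene with the smallest p in each deletion, and the genes most alike to each member. Examples from the marker lists were picked after their values were seen. Exon lengths and shared 75-base stretches came from GENCODE M21. Alternatives were other scalings, DESeq2 1.42.0, the likelihood-ratio test, other filters, a replicate block, the 4 libraries of a comparison alone and leaving out each library. Figures were drawn with matplotlib 3.10.9 and promoters aligned with Biopython 1.88.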

Additional observations from a re-analysis of the deposited data

How the results depend on the processing

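Of 770 values of single members under alternatives, 724 kept their direction and side of the threshold, 16 passed the threshold newly, 7 no longer passed it and 23 changed sign. The 7 all concern Csf2rb between the lines. No member was called in PARP1CKO, in PARP2CKO or in the difference between them under any alternative run, and Csf3r and Cd9 kept their line call in all of them. The cause of the changes below was not tested.

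Genes called in PARP1CKO numbered 86 with DESeq2, 146 with the likelihood-ratio test and 101 with no filter on low counts, and 1 to 34 with a library left out. In PARP2CKO these counts were 27, 39, 26 and 4 to 19, and for the difference between the effects 45, 72, 61 and 1 to 16. For the mean effect of both deletions, which was added after seeing the data, they were 60, 87, 71 and 3 to 25, with 1 member, Adgre1, called by each of DESeq2, the likelihood-ratio test and the fit with no filter. Between the lines 1082 to 2327 genes were called with a library left out, and members called were 5 with the likelihood-ratio test (2664 of 13197 genes), 6 with no filter (2583 of 17542) and 2 to 4 with a library left out. The members that passed newly between the lines were Ly6c2 in 5 alternatives, Cd14 in 6 and Csf2ra in 2.

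With library size alone as the scaling, which moves the median of all genes between the lines by -0.05, the log2 difference of Csf1r was -0.00079 in PARP1CKO and -0.0052 between the lines, and that of Cd63 between the lines was -0.0149. With a library left out, log2 differences that changed sign in PARP1CKO ranged from -0.0319 to 0.0389 for Csf1r, -0.0081 to 0.48 for Csf2ra and -0.0627 to 0.17 for Csf3r. In PARP2CKO they ranged from -0.0024 to 0.16 for Csf1r, -0.0367 to 0.0206 for Cd9, -0.11 to 0.0737 for Cd14, -0.0529 to 0.27 for Csf2rb and -0.0039 to 0.15 for Cd68. For the difference between the effects they ranged from -0.41 to 0.0819 for Csf2ra, -0.10 to 0.0706 for Cd68 and -0.0066 to 0.16 for Csf1r. Cd63 ranged from -0.00076 to 0.0695 between the lines and from -0.0036 to 0.0665 for the mean effect, where Csf3r ranged from -0.11 to 0.0021.

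The correlations of same-numbered deviations between groups lay between -0.13 and 0.15. With 2 libraries a group, these values cannot decide whether libraries of the same number were paired. With a replicate block the genes called were 14 in PARP1CKO, 6 in PARP2CKO, 3 for the difference, 2028 between the lines and 6 for the mean effect, and 5 members were called between the lines. With 2 libraries a group, the precision of a member rests on the spread between cultures, which is larger than its counting error.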
